A study of Mus musculus with 42 samples.

Results

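Retinas of mice kept for 48 h at low air pressure were compared with retinas of mice kept for 48 h at normal pressure with a matching oxygen supply. The first group, 14-48h-JFJ, holds 6 C57BL/6J mice that stayed at the Jungfraujoch research station at 3450 m, where the pressure was about 64.65 kPa. The second group, 14-48h-ZH, holds 6 C57BL/6J mice that breathed 14% O2 in isobaric chambers in Zurich at 400 m. These are 12 of the 42 mice of the series, with 1 RNA-seq library each, and the 6 mice of a group were chosen by their labels alone. Of the 25700 genes in the deposited table, 17099 passed the filter on low values in both groups and were tested. Beside them stand other groups of 6 C57BL/6J mice each, namely Normoxia, 14-06h-ZH (6 h at 14% O2 in Zurich), 14-11w-ZH (11 weeks at 14% O2 in Zurich) and 14-07w-JFJ (7 weeks at 3450 m). The 6 mice of 07-06h-ZH, kept for 6 h at 7% O2 in Zurich, enter only values taken over all 42 mice. Mice started at 9.5 weeks of age in Normoxia and 14-11w-ZH, at 9 to 11 in 14-06h-ZH, at 10 in 07-06h-ZH and at 9 in 14-07w-JFJ, and those of Normoxia were kept for 11 weeks, so they were older at sampling than the mice of the 48 h groups.

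The 48 h groups differ in more than pressure. Mice were 9 weeks old at the start in 14-48h-JFJ and 9 to 11 weeks old in 14-48h-ZH, lights were on for 12 h of the day at altitude and for 14 h in Zurich, and mice of the altitude group had travelled to the station. Retinas at altitude were also taken out without a microscope. The library codes in the labels put all 6 mice of 14-48h-JFJ in a series of their own, while 14-48h-ZH shares its series with 14-06h-ZH, and Normoxia shares another with 14-11w-ZH. Pressure, travel, light cycle, dissection and code series therefore cannot be told apart at 48 h. Transcripts of the Y chromosome were present in 3 of 6 mice in both groups, always replicates 1 to 3, but in 6 of 6 mice of Normoxia and of 14-11w-ZH.

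Low oxygen stabilises hypoxia-inducible factors (HIF), which switch on genes for glycolysis, oxygen delivery and vessel growth. The retina is among the tissues that use most oxygen, above all in its photoreceptors, the rods and cones, while Müller glia span its layers and feed and buffer the neurons. The neural retina lies against the retinal pigment epithelium, which makes melanin and recycles the visual pigment, and which tears off with the retina to a varying degree during dissection. The iris and ciliary body can add further pigment cells and smooth muscle, and the choroid and vessels stroma and blood.

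Recovered read totals were 16383664 to 21064858 in 5 libraries of 14-48h-JFJ and 16520920 to 20412885 in the 6 libraries of 14-48h-ZH, so depth was alike. For replicate 4 of 14-48h-JFJ the reads could not be recovered from the deposited values. Over 13205 genes, the correlation of log values between 2 mice was 0.9548 to 0.9932 within 14-48h-JFJ, 0.9781 to 0.9937 within 14-48h-ZH and 0.9504 to 0.9859 between the groups. The median log2 difference over all genes tested was 0.11 on the deposited FPKM scale (fragments relative to transcript length and library size) and 0.02 after median-of-ratios scaling, so small differences are to be read against that shift.

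Differences are written as 14-48h-JFJ minus 14-48h-ZH on the log2(FPKM + 0.1) scale, which understates changes of low genes, with the standard error (SE) and the adjusted p of limma. To be called, a gene needed a log2 difference of 1 or more in either direction and an adjusted p no higher than 0.05. With hemoglobins, crystallins, *Rpe65*, *Mlana* and *Pmel* left out, 219 of 17099 genes were called (1.28%), of which 212 were higher at altitude (1.24%) and 7 were lower (0.0409%). By the p alone, whatever the size, 5283 genes were higher (30.9%) and 1481 were lower (8.66%), and after median-of-ratios scaling 18.3% were higher and 18.1% were lower. The called genes just inside the threshold on size were *Ggt1*, *Gm10645* and *Bst2* at 1.005 to 1.013, and *Fgfr2*, *Aspa* and *Nr2f6* lay just under it. Because whole retinas were sequenced, fewer cells of a type and less RNA per cell cannot be told apart in any of these values.

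Markers of pigment cells were higher in 14-48h-JFJ. Of 18 listed markers, all of them tested, 15 passed the test as higher and 0 as lower, 12 of them met the rule for calling before contamination genes were left out, and the median log2 difference was 2.10, against 0.11 over all genes. The summed FPKM of the 18 genes was 968.4, 494.8, 466.7, 108.7, 489.9 and 197.6 in replicates 1 to 6 of 14-48h-JFJ and 74.79 to 112.9 (median 98.11) in 14-48h-ZH. All altitude retinas except replicate 4 lay above every Zurich retina, and replicate 4 lay inside the Zurich range. The amount of pigment cell RNA thus differed among the altitude mice as well as between the groups.

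*Tyr* encodes tyrosinase, the first enzyme of melanin synthesis. Its FPKM in 14-48h-JFJ was lowest at 0.548, median 4.78 and highest at 10.1, and in 14-48h-ZH 0.196, 0.389 and 1.04, with a log2 difference of 2.82 (SE 0.63, adjusted p = 0.0045). *Tyrp1* and *Dct*, which act downstream of tyrosinase, had log2 differences of 2.99 and 3.46, and in all 3 genes the lowest altitude mouse overlapped the Zurich range. *Slc45a2*, a transporter of melanosomes, ranged from 0.111 to 1.09 FPKM in 14-48h-JFJ and from 0.0187 to 0.0812 in 14-48h-ZH, without overlap (1.91, SE 0.37, adjusted p = 0.00069). *Slc16a8*, a lactate transporter of the pigment epithelium, ranged from 1.29 to 12.2 FPKM against 0.38 to 1.02 (2.31, SE 0.51, adjusted p = 0.004). *Rpe65*, the isomerase of the visual cycle, had medians of 17.9 and 3.15 FPKM but its ranges overlapped, and at an adjusted p of 0.051 it did not pass the test. *Rdh5*, a retinol dehydrogenase of the same cycle, separated the groups at 52.2 to 123 FPKM against 36 to 41, with a log2 difference of 0.97.

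Some of these genes share a sequence in their promoters, printed here because *Tyr*, *Tyrp1* and *Dct* moved together. The motif TCATGTG, searched on both strands and known as the M-box, is the classical recognition sequence of the pigment cell factor MITF. In the promoter table of RefSeq (build GRCm38.p6, 250 bases before to 50 after each start), it was found in 3 of the 13 pigment cell markers listed there (23.1%) and in 1165 of the 27025 genes of the table (4.31%), or 3.77% of all 32851 promoters. The 107-base windows below lie at chr7:87493478-87493584 on the minus strand for *Tyr*, chr4:80834116-80834222 on the plus strand for *Tyrp1* and chr14:118052341-118052447 on the minus strand for *Dct*, the motif in capitals. The motif begins 22 bases before the start of *Tyr*, 47 before that of *Tyrp1* and 151 before that of *Dct*.
Tyr: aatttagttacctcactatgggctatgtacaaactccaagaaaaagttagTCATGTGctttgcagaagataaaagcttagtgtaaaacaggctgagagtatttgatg
Tyrp1: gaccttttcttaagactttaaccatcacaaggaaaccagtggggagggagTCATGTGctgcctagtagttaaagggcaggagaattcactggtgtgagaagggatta
Dct: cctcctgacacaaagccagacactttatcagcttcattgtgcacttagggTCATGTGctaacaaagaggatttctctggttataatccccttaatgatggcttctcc

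Markers of smooth muscle and pericytes, the contractile cells of vessels and iris, were higher in part. Of 19 listed genes 17 were tested, and 9 passed as higher and 1 as lower, against 30.9% and 8.66% of all genes. *Tagln*, *Tpm2*, *Acta2* and *Myh11* were called. Their summed FPKM was 106.3 to 231.4 in 14-48h-JFJ and 83.8 to 98.46 in 14-48h-ZH, without overlap. *Tagln*, transgelin of smooth muscle, had 3.83, 9.7 and 30 FPKM as lowest, median and highest in 14-48h-JFJ and 1.58, 2.21 and 3.47 in 14-48h-ZH, a log2 difference of 2.12 (SE 0.57, adjusted p = 0.013). *Acta2*, smooth muscle actin, had medians of 17.4 and 3.13 FPKM with overlapping ranges (adjusted p = 0.04). *Tpm2*, a tropomyosin, and *Myh11*, the smooth muscle myosin, were called close to the threshold at adjusted p of 0.035 and 0.049. *Rgs5*, which marks pericytes, differed less in size but without overlap, at 30.9 to 40.7 FPKM against 24.8 to 28.2 (0.37, SE 0.06, adjusted p = 0.00024). After median-of-ratios scaling 4 of the 17 genes passed as higher and 1 as lower, against 18.3% and 18.1% of all genes. With the pigment marker mean as a term in the fit 1 passed as higher and 0 as lower, against 14.2% and 3.88% of all genes. That mean was 0.98 to 4.23 in 14-48h-JFJ and 0.32 to 1.12 in 14-48h-ZH, so the fit cannot fully part it from group. With the term, the median log2 difference of the 4 Y-linked genes moved from 0.05 to -5.74, with 3 of 6 mice carrying them in both groups. Values from that fit are therefore a description. Of the 12 fits that left out 1 mouse, *Tagln* was called in 12, *Acta2* and *Tpm2* in 3 and *Myh11* in 2, and without replicate 1 of 14-48h-JFJ the adjusted p was 0.081 for *Acta2*, 0.053 for *Tpm2* and 0.083 for *Myh11*.

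Blood markers were higher too. Of the 7 red blood cell markers tested, 6 passed as higher and 0 as lower, and their summed FPKM was 142.9 to 482.7 in 14-48h-JFJ and 101.3 to 140.5 in 14-48h-ZH. The beta globin *Hbb-bs* had medians of 127 and 41.1 FPKM (log2 difference 1.54, SE 0.36, adjusted p = 0.0066), and *Alas2*, the heme synthesis enzyme of erythroid cells, 1.89 and 0.8. Of 13 stromal fibroblast markers tested, 3 passed as higher (*Lum*, *Col1a1* and *Col3a1*) and 0 as lower, a share of higher genes below that of all genes (30.9%), and their summed FPKM overlapped, at 98.85 to 145.1 and 33.92 to 124.9. Lens markers did not separate the groups. Of the 18 lens genes 0 passed limma's test, and 0 had an unadjusted p under 0.05, and their summed FPKM ran from 18.37 to 58280 in 14-48h-JFJ, where replicate 6 stood at 58280 and replicate 1 at 9742, and from 89.32 to 11360 in 14-48h-ZH. The part of these tissues in the differences of other genes was not tested beyond the values given here.

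**Figure D1:**
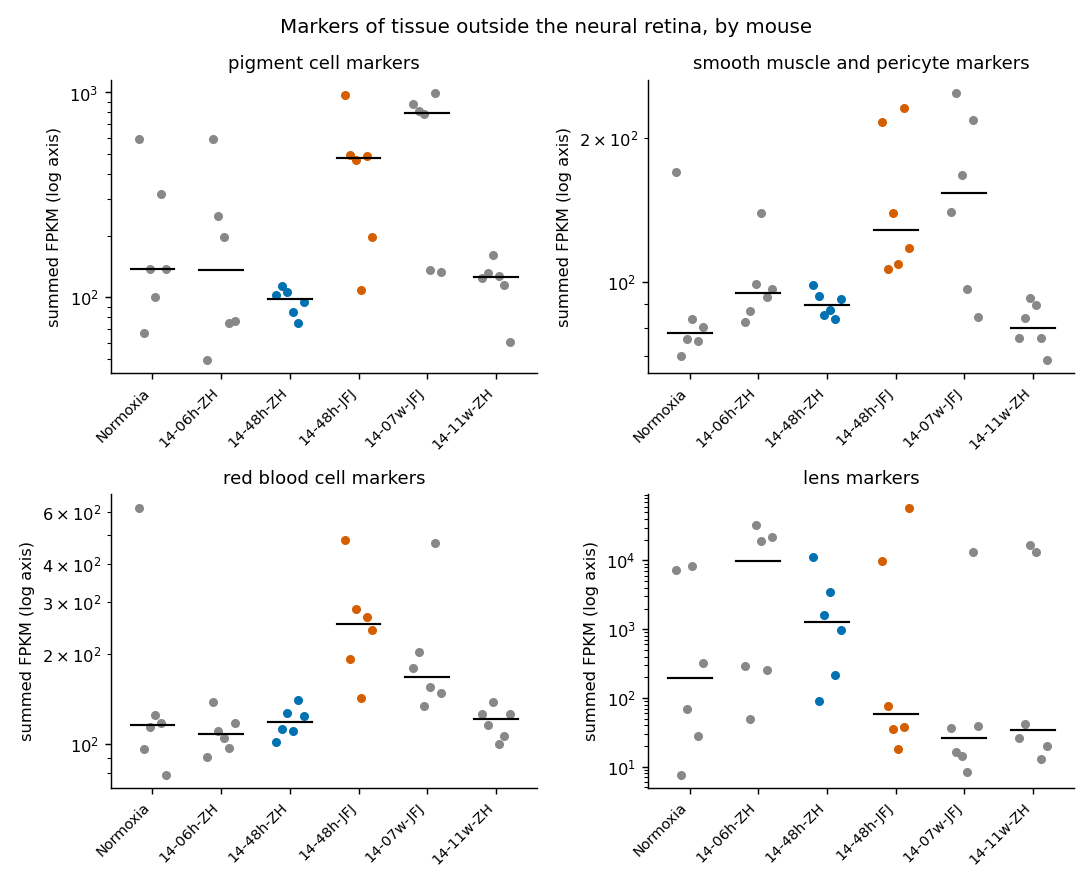
Each point is 1 mouse, the vertical log axis is the summed FPKM of the marker list named above each panel, the horizontal axis is the group, and the bar is the median of 6 mice. Pigment cell markers reach 968.4 in 14-48h-JFJ (orange) and at most 112.9 in 14-48h-ZH (blue), while lens markers spread widely in both groups.

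The matrix and growth factor genes that the study had named for low against normal pressure were higher in 14-48h-JFJ in part. *Lum*, lumican of collagen matrices, was near 0 in Zurich (at most 0.08 FPKM) and 0 to 1.31 at altitude, with a log2 difference of 1.83 (SE 0.53, adjusted p = 0.015). *Dcn*, decorin, had medians of 5.27 and 0.723 FPKM, and *C2*, a complement component, 3.42 and 1.13, but neither passed the test (adjusted p = 0.084 and 0.068). Both passed on recovered reads, without replicate 4 of 14-48h-JFJ, in edgeR (3.49 and 1.96, adjusted p = 0.00049 and 0.00042) and in DESeq2, and with all 7 groups in 1 limma fit (adjusted p = 0.044 and 0.035). For both the altitude range enclosed the Zurich range at its low end. *Gpnmb*, a glycoprotein of pigment cells and macrophages, rose by a log2 difference of 2.65 (adjusted p = 0.013) with medians of 30.4 and 2.69 FPKM. *Angptl2*, an angiopoietin-like secreted factor, separated the groups at 3.12 to 5.62 FPKM against 0.635 to 2.88 (1.46, SE 0.29, adjusted p = 0.0015). *Mdk*, midkine, a heparin-binding growth factor, also separated them at 11.2 to 25.2 against 6.72 to 9.05 (1.17, SE 0.18, adjusted p = 0.00024). *Ptgds*, the prostaglandin D synthase, was among the 15 largest increases of called genes whose groups lay apart at a mean of 1 FPKM or more, with medians of 514 and 112 FPKM (2.20, SE 0.44, adjusted p = 0.0026). Across the 42 mice the correlation with *Rpe65* was 0.54 for *Dcn*, 0.56 for *Lum*, 0.66 for *Gpnmb*, 0.67 for *Angptl2* and *Mdk*, and 0.80 for *Ptgds*. With the pigment marker mean as a term, the log2 difference turned to -0.30 for *Lum*, -1.48 for *Dcn*, -0.76 for *C2*, -0.27 for *Tpm2* and -0.58 for *Myh11*. At an adjusted p of 0.035 in that limma fit, *Dcn* met the rule for being called lower. The difference was 0.03 for *Gpnmb*, 0.17 for *Tagln*, 0.88 for *Angptl2* and 0.50 for *Mdk* (adjusted p = 0.023). Without replicate 4 of 14-48h-JFJ, the mouse with the least pigment cell RNA, *Dcn* passed at 2.94 (adjusted p = 0.012) and *C2* at 1.77 (adjusted p = 0.0021).

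Leaving out genes that follow *Rpe65* at a correlation of at least 0.5 over log10(FPKM + 1) of the 42 mice removed 82 of the 212 called higher genes and 0 of the 7 called lower ones, and left 137. Since all 42 mice enter that correlation, differences between the 82 genes and the other 130 are in part built in, and they are given as a description. The groups did not overlap in 31 of the 82 genes and in 79 of the 130. Over all 17099 genes tested they did not overlap in 3490 (20.4%), and 1.24% of all were called higher. The called genes were chosen on these same values, so a higher share without overlap is in part built in.

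The other groups of the series place these values. The mean of Normoxia was nearer to 14-48h-JFJ than to 14-48h-ZH for 98 of the 130 genes (75.4%) and for 16 of the 82 (19.5%), against 61.2% of all genes tested. The mean of 14-06h-ZH was nearer to 14-48h-JFJ for 23 of the 130 genes (17.7%), against 30.4% of all. In 66 of the 130 (50.8%) all 6 mice of 14-06h-ZH lay below all 6 mice of 14-48h-JFJ, against 2 of the 82 (2.44%) and 13.2% of all genes. The median log2 difference of the 130 genes was -0.93 for 14-48h-ZH against Normoxia, 0.36 for 14-48h-JFJ against Normoxia and -0.24 for 14-48h-ZH against 14-06h-ZH. These comparisons share mice, and the 130 genes were called on values of 14-48h-JFJ and 14-48h-ZH that also enter the counts here. Differences of these shares from those of all genes are therefore in part built in, and the values are given side by side only. For 90 of the 130 genes (69.2%), against 45.7% of all, Normoxia lay nearer to 14-48h-JFJ while 14-06h-ZH lay nearer to 14-48h-ZH, the group with which it shares a code series.

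*Scand1*, a SCAN domain transcription cofactor, is one of the genes with this order of groups. Its FPKM was 52.6, 46.9, 37.6, 42.5, 48.0 and 42.5 in replicates 1 to 6 of 14-48h-JFJ and 5.03, 4.86, 7.12, 6.38, 7.08 and 4.89 in those of 14-48h-ZH, a log2 difference of 2.92 (SE 0.11, adjusted p = 7.3e-10). Group means were 45.3 in Normoxia, 47.8 in 14-11w-ZH, 43.6 in 14-07w-JFJ and 6.1 in 14-06h-ZH. All mice of Normoxia, 14-11w-ZH and 14-07w-JFJ lay far above those of 14-48h-ZH, and all mice of 14-06h-ZH lay at its level. *Nrtn*, neurturin, a survival factor for neurons, ranged from 4.49 to 7.93 FPKM (median 6.07) against 0.383 to 0.876 (median 0.772), with 4.31 in Normoxia and 0.814 in 14-06h-ZH (2.96, SE 0.17, adjusted p = 4.4e-09). Its receptors *Gfra2* and *Ret* moved the other way by -0.21 and -0.19 (adjusted p = 0.0079 and 0.0055). *Jund*, a member of the AP-1 family, ranged from 46.4 to 52 FPKM against 16.4 to 19.1, with 51.7 in Normoxia and 19.1 in 14-06h-ZH (1.45, SE 0.04, adjusted p = 5.2e-12). *Prr7*, a proline-rich membrane protein, and the unplaced gene *CAAA01147332.1* had the same order of groups, with log2 differences of 2.11 each. The coat colour gene *a* (agouti), of which C57BL/6J mice carry a mutant allele, had 31.8 to 39.7 FPKM against 3.4 to 6.53 (2.99, SE 0.16, adjusted p = 6.8e-08).

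**Figure D2:**
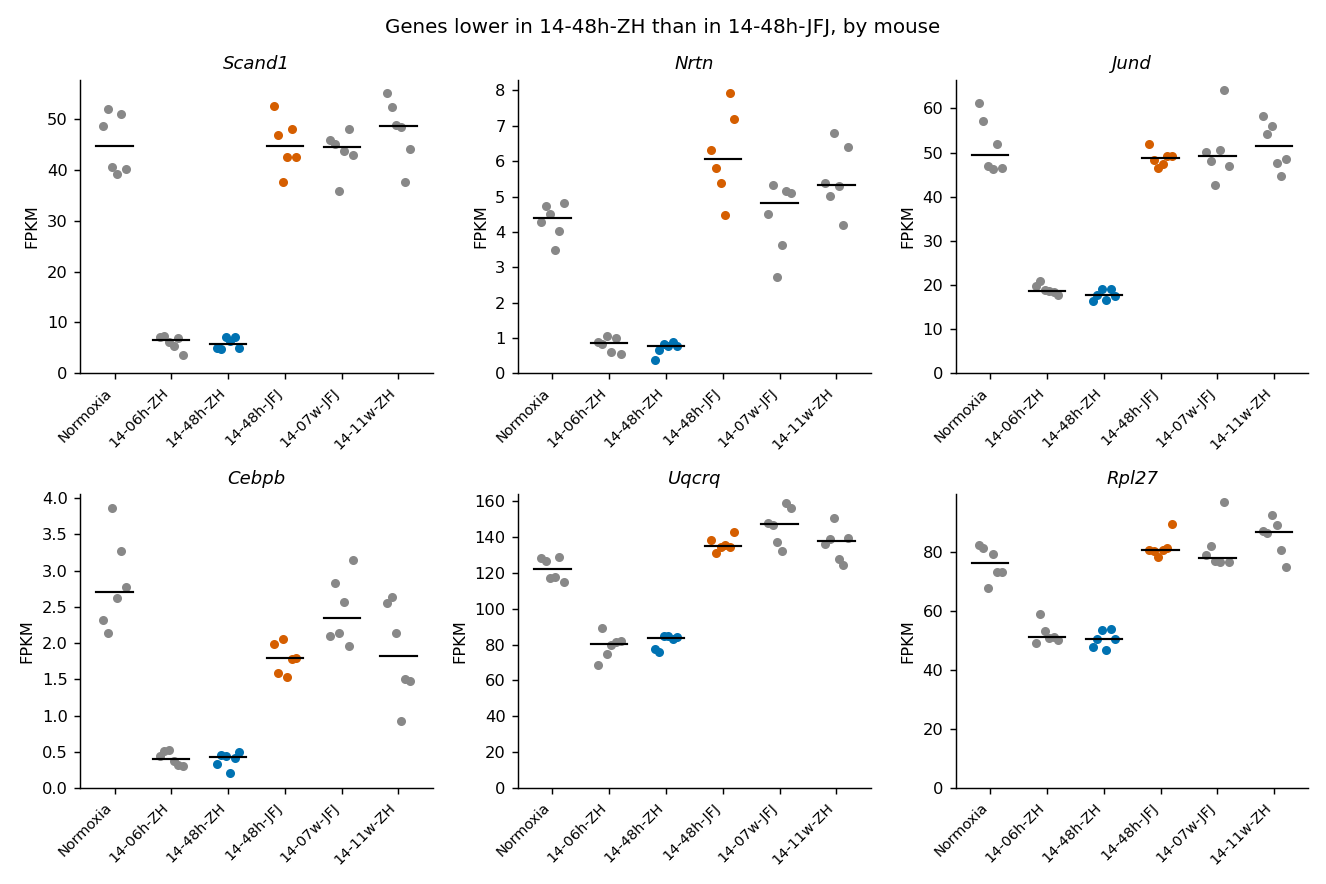
Each point is 1 mouse, the vertical axis is FPKM from 0, the horizontal axis is the group, and the bar is the median of 6 mice. *Scand1*, *Nrtn*, *Jund*, *Cebpb*, *Uqcrq* and *Rpl27* are low in 14-48h-ZH (blue) and 14-06h-ZH, and *Scand1* is at 37.6 or more in every mouse of 14-48h-JFJ (orange).

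Several of these genes are rich in G and C and short. The median G and C content of the transcripts was 56.26% for the 130 genes, against 49.67% for all genes tested, and the median transcript length was 1348 bases against 3228. Of the 82 genes that follow *Rpe65* it was 51.38% and 2753 bases. The first 90 coding bases are printed for *Scand1*, *Jund* and *Nrtn*, which were higher at altitude, and for *Kcnj10* and *Rp1l1*, which were lower, with the longest run of G and C in capitals. The bases come from the GENCODE M21 annotation on GRCm38. By the gene positions deposited with the FPKM values, the genes lie at chr2:156311847-156312704 (*Scand1*, minus strand), chr8:70698949-70700616 (*Jund*, plus), chr17:56751325-56757530 (*Nrtn*, minus), chr1:172341210-172374085 (*Kcnj10*, plus) and chr14:63992506-64035025 (*Rp1l1*, plus).
Scand1: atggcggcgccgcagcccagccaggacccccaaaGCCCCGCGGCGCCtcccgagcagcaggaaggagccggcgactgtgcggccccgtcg
Jund: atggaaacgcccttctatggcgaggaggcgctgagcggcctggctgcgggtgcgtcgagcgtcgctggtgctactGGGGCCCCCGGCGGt
Nrtn: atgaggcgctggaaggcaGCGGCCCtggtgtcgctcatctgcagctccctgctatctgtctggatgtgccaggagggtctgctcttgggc
Kcnj10: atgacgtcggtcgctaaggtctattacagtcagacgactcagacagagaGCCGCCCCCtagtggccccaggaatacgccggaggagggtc
Rp1l1: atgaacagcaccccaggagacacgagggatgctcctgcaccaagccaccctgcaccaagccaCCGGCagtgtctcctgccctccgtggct

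G and C made up 75.6% of the whole coding sequence of *Scand1*, 70.7% of that of *Jund* and 72.3% of that of *Nrtn*. They made up 55.2% for *Kcnj10* and 56.8% for *Rp1l1*. The 5 genes were picked with their values known, so these shares are a description.

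The difference between the groups followed transcript length over all genes. With genes ordered into 10 equal bins by transcript length, the shortest bin (60 to 1316 bases) had a median log2 difference of 0.32 and 4.04% of its genes called higher. The median fell at every further bin to -0.08 in the longest (6628 bases or more), where 0.176% were called higher. Against Normoxia, the median of the shortest bin was -0.23 and that of the longest 0.06 in 14-48h-ZH, and 0.09 and -0.02 in 14-48h-JFJ. Taken mouse by mouse, the shortest bin minus the longest bin, relative to the mean of the 42 mice, was 0.107 to 0.224 in 14-48h-JFJ and -0.326 to -0.185 in 14-48h-ZH. It was -0.307 to -0.144 in 14-06h-ZH, -0.016 to 0.115 in Normoxia, 0.0741 to 0.256 in 14-07w-JFJ and 0.0805 to 0.276 in 14-11w-ZH. The 12 mice of 14-48h-ZH and 14-06h-ZH lay below every mouse of the other groups. For G and C content the highest bin (57.99% or more) stood out with a median of 0.22 and 3.28% of genes called higher, against medians of 0.08 to 0.13 in the other bins. With each mouse corrected for transcript length, 167 genes were called, 153 of them shared with the 219, and 87 were left after the filter on *Rpe65*, 79 of them among the 137. *Scand1*, *Nrtn*, *Prr7*, *a*, *Cebpb*, *Cebpd*, *Edn2*, *Id1* and *Ndufb4* were among the 24 genes called under every one of the 28 settings tried, while *Jund* fell to 0.91 under the correction for G and C content.

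**Figure D3:**
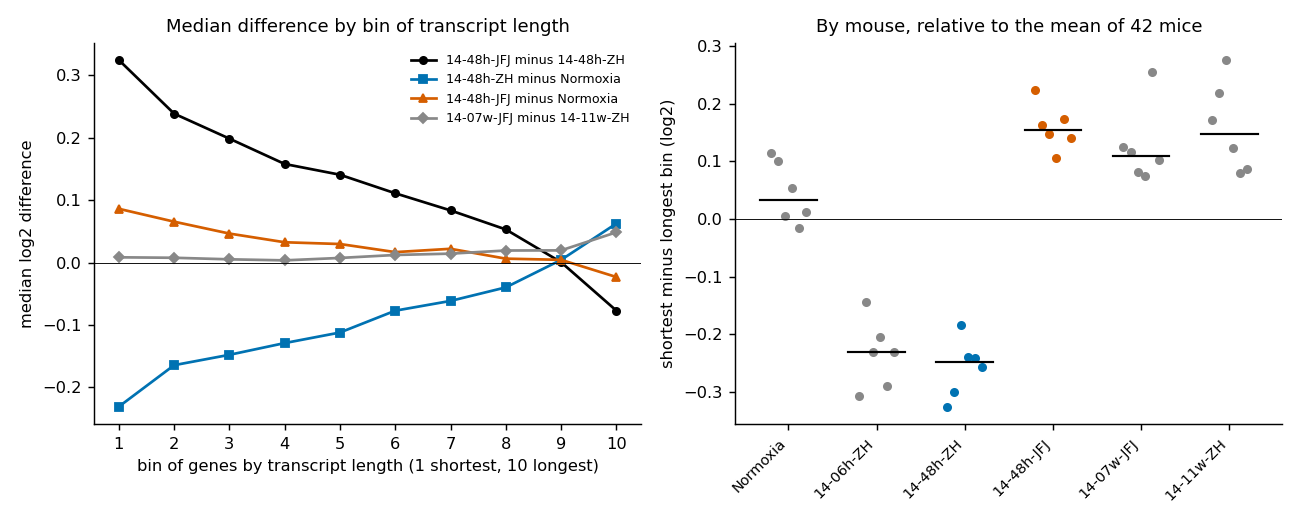
Left, the median log2 difference (vertical axis) in 10 bins of genes by transcript length (horizontal axis) for the 4 comparisons in the legend. Right, each point is 1 mouse, the vertical axis is the median of the shortest bin minus that of the longest on the log2 scale relative to the mean of 42 mice, and the bar is the median of 6 mice. The 48 h difference runs from 0.32 to -0.08 across the bins, and the mice of 14-48h-ZH and 14-06h-ZH lie below 0.

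Genes of the ribosome and of the respiratory chain, both mostly short, were higher in 14-48h-JFJ by small steps. Of 79 cytosolic ribosomal protein genes tested, 70 passed as higher and 0 as lower, the groups did not overlap in 60, and the median log2 difference was 0.31. *Rpl27* ranged from 78.5 to 89.5 FPKM at altitude and from 46.9 to 53.9 in Zurich (0.69, SE 0.04, adjusted p = 7.5e-09), with 76.3 in Normoxia and 52.3 in 14-06h-ZH. *Rpl10a* had medians of 162 and 107 FPKM (0.58). Of 73 nuclear genes for respiratory chain subunits, 63 passed as higher and 1 as lower, with a median of 0.34. *Uqcrq* of complex III ranged from 131 to 142 FPKM against 75.7 to 84.9 (0.74, SE 0.04, adjusted p = 7.3e-10) and *Cox5b* of complex IV from 149 to 172 against 98.7 to 111 (0.63). *Ndufb4* of complex I was called, at 11.1 to 14.7 FPKM against 4.89 to 5.45 (1.27, SE 0.07, adjusted p = 2.6e-09). Median differences against Normoxia were -0.21 and -0.26 for the 2 lists in 14-48h-ZH and 0.09 for both in 14-48h-JFJ. After the correction for transcript length, 35 ribosomal genes passed as higher and 8 as lower, and 40 and 7 genes of the respiratory chain, against 30.2% and 4.97% of all genes. The medians were then 0.09 for the ribosomal list and 0.16 for the respiratory chain, against 0.11 over all genes, so the ribosomal median was no longer above it. Of 32 replication-dependent histone genes tested of 67 listed, 13 passed as higher and 0 as lower, against 30.9% of all genes higher. Among them was *Hist1h4i* at 7.7 to 10.6 FPKM against 4.25 to 5.98 (0.77, adjusted p = 1.2e-05). After the correction for transcript length 9 of the 32 passed as higher and 0 as lower, a share near the 30.2% of all genes.

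The largest increases included ribosomal pseudogenes and predicted genes, whose reads may be shared with near-identical copies and whose values are uncertain for that reason. Symbols of predicted genes or pseudogenes made up 33 of the 219 called genes (15.07%) and 6.111% of the genes tested. *Gm10073* had 6.23 to 11.1 FPKM in 14-48h-JFJ and 0 to 0.562 in 14-48h-ZH (4.75, SE 0.38, adjusted p = 1.2e-06), and *Rpl9-ps6* 5.74 to 9.34 and 0.161 to 0.657 (3.90, SE 0.21, adjusted p = 4.3e-09). *Gm11273*, *Gm9843*, *Gm11808* and *Gm2000* had log2 differences of 4.07, 3.11, 3.58 and 2.17. Means of 14-06h-ZH stayed low for these genes (0.154 for *Gm10073* and 0.313 for *Rpl9-ps6*) and those of Normoxia did not (6.73 and 5.11). *Ccnb1ip1*, a regulator of meiotic crossing over, completed the list of large increases at 0.459 to 7.71 FPKM against 0 to 0.432, with 1 altitude mouse, replicate 2, far above the others.

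Only 7 genes were called lower in 14-48h-JFJ, *Gm6563*, *Gm12166*, *mt-Atp6*, *Pde10a*, *Gm44931*, *Zfp993* and *Gm45094*. Of these, 5 had a mean under 1 FPKM. With a pseudocount of 1 all but *Pde10a* came under the size threshold, from -0.25 for *Gm45094* to -0.96 for *Gm6563*. In edgeR on recovered reads *Gm45094* and *Zfp993* did not pass (adjusted p = 0.10 and 0.055), and after the correction for transcript length *Pde10a* was at -0.90. *Gm6563* was the only one of the 7 whose groups lay apart at a mean above 1 FPKM, at 0.615 to 1.97 FPKM against 2.44 to 4.05 (log2 difference -1.46, SE 0.25, adjusted p = 0.00029). *Pde10a*, a cyclic nucleotide phosphodiesterase, named after its values were seen, had medians of 7.16 and 17.6 FPKM (-1.08, SE 0.22, adjusted p = 0.0025). Its difference came under the size threshold without replicate 3 of 14-48h-JFJ (-0.995) or replicate 4 of 14-48h-ZH (-0.9999), as did that of *Gm44931* without replicate 1 of 14-48h-JFJ (-0.98) and that of *Zfp993* without replicate 5 of either group (-0.94 and -0.99). *Pde10a* is the one gene of the 7 above a mean of 5 FPKM in both groups. *mt-Atp6* was listed at no more than 0.719 FPKM in any of the 12 mice, where *mt-Nd5* stood at 1625 or more, and it overlaps *mt-Atp8* in the mitochondrial genome, so its value is uncertain.

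Genes of rods and of the light-sensing outer segment were lower in 14-48h-JFJ. Of 10 rod markers 6 passed as lower and 1 as higher, with a median log2 difference of -0.19, and of 13 outer segment genes 10 passed as lower and 0 as higher, with a median of -0.21 and no overlap between the groups in 9. *Gnat1*, rod transducin, had 10100, 11550 and 11940 FPKM as lowest, median and highest in 14-48h-JFJ and 13230, 14400 and 15090 in 14-48h-ZH (-0.33, SE 0.04, adjusted p = 1.6e-05). The mean was 12220 in Normoxia and 13108 in 14-06h-ZH, so by their means 14-48h-ZH and 14-06h-ZH stood above Normoxia, and 14-48h-JFJ did not differ from it past the threshold (adjusted p = 0.13). *Abca4*, the retinoid flippase of the outer segment discs, ranged from 519 to 646 FPKM against 775 to 889 (-0.49, SE 0.05, adjusted p = 8.9e-07), with 693 in Normoxia. *Rp1l1* and *Rp1*, microtubule proteins of the photoreceptor axoneme, had differences of -0.49 and -0.27, and *Cdhr1*, a cadherin at the base of the discs, of -0.41. These genes kept their direction under the 6 other scalings and terms tried, in which 8 to 11 outer segment genes passed as lower and 0 as higher.

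Cone genes went the other way in part. Of 9 cone markers 5 passed as higher and 0 as lower, with a median of 0.22, against 30.9% and 8.66% of all genes. Under median-of-ratios scaling 4 passed as higher and 1 as lower, against 18.3% and 18.1% of all, and in edgeR on recovered reads 2 and 1. After the correction for transcript length 3 passed as higher and 0 as lower, against 30.2% and 4.97% of all. The median was then 0.14, against 0.11 over all genes. *Arr3*, cone arrestin, had 350 to 480 FPKM (median 407) in 14-48h-JFJ and 221 to 268 (median 245) in 14-48h-ZH (0.72, SE 0.07, adjusted p = 1.3e-06). Its means were 338 in Normoxia and 380 in 14-06h-ZH, so 14-48h-ZH was the low group here. *Gngt2*, the cone transducin gamma subunit, had medians of 114 and 95 FPKM (0.29).

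Among Müller glia markers 5 of 8 passed as lower and 2 as higher, with a median of -0.17. *Kcnj10*, the potassium channel that drains potassium from active neurons, ranged from 11.2 to 13.8 FPKM against 16.5 to 17.7 (-0.47, SE 0.05, adjusted p = 6e-06), and *Slc1a3*, the glutamate transporter, from 107 to 121 against 126 to 136 (-0.20). *Car14*, a membrane carbonic anhydrase that is also made by pigment epithelium, was higher by 0.32. Of 12 microglia markers 5 passed as higher and 0 as lower, with a median of 0.31, against 30.9% of all genes higher. After the correction for transcript length 2 passed as higher and 0 as lower, with a median of 0.15 against 0.11 over all genes. *Ctss*, the lysosomal protease cathepsin S, ranged from 8.16 to 12.7 FPKM against 6.3 to 8.29 (0.45, SE 0.09, adjusted p = 0.00093). In the endothelium list 5 of 12 passed as higher and 2 as lower, or 3 and 1 after the correction for transcript length. *Kdr*, the main receptor of VEGF-A, was lower at altitude at 34.8 to 42.5 FPKM against 46.7 to 56 (-0.38, SE 0.05, adjusted p = 3.6e-05), and *Egfl7*, a matrix protein of endothelial cells, was higher at 12.5 to 17.8 against 7.66 to 11.3 (0.61).

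**Figure D4:**
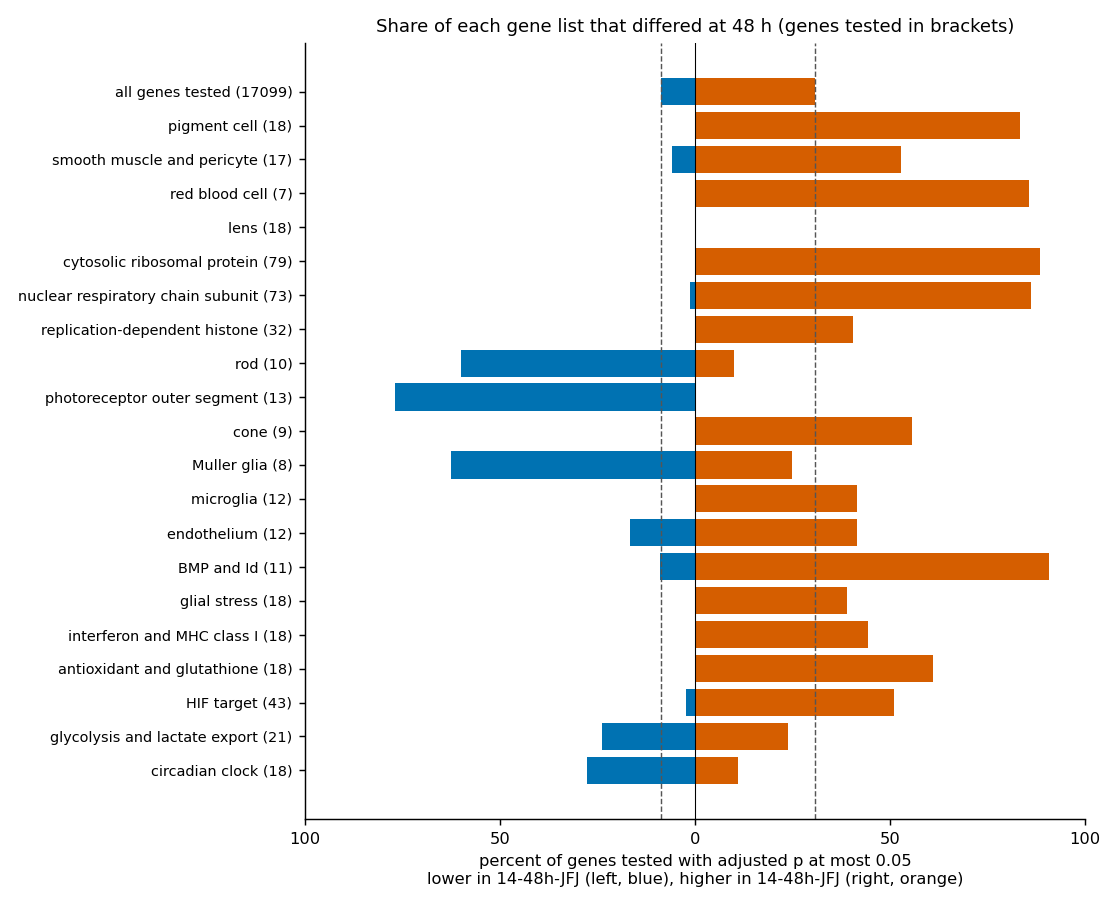
Bars show the percent of the tested genes of each list (vertical axis, number tested in brackets) with an adjusted p of at most 0.05, higher in 14-48h-JFJ to the right and lower to the left, and dashed lines show the share of all genes, 30.9% and 8.66%. Of the lists drawn, the pigment cell, ribosomal and respiratory chain lists extend furthest to the right together with the red blood cell list and the BMP and Id list, and the outer segment list extends furthest to the left.

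The Id genes, which block bHLH transcription factors and are direct targets of bone morphogenetic protein (BMP) signalling, were higher with BMP genes. Of the 11 genes of the list 10 passed as higher and 1 as lower, 4 were called, and the median log2 difference was 0.90. With the pigment marker mean as a term in the fit, 4 passed as higher and 1 as lower, 2 were called, and the median was 0.46. *Id1* had 8.45, 11.3 and 14 FPKM as lowest, median and highest in 14-48h-JFJ and 2.77, 4.25 and 5.24 in 14-48h-ZH (1.37, SE 0.15, adjusted p = 8.9e-06), and *Id3* 23.1, 32.9 and 39.6 against 11.5, 12.7 and 20.1 (1.19, SE 0.17, adjusted p = 0.00026). Both separated the groups, and their means in Normoxia, 7.1 and 22.5, lay between the groups. *Bmp4*, a ligand, ranged from 4.71 to 8.52 FPKM against 1.03 to 3.9 (1.35, SE 0.27, adjusted p = 0.0019), and *Bmp2* from 1.5 to 2.63 against 0.255 to 1.29 (1.15, SE 0.28, adjusted p = 0.0038). *Smad7*, the inhibitor that BMP signals induce, was higher by 0.43 and *Id4* by 0.36. The correlation with *Rpe65* over 42 mice was 0.73 for *Bmp4*, 0.62 for *Id1*, 0.46 for *Id3* and 0.08 for *Id4*. With the pigment term, the differences of *Id1* and *Id3* were 1.17 and 1.12 (adjusted p = 0.0068 and 0.029), while those of *Bmp4* and *Bmp2* were 0.77 and 0.78 and did not pass (adjusted p = 0.22 and 0.27). The term itself differed between the groups, so these values do not sort the genes by tissue of origin.

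Among C/EBP transcription factors, *Cebpb* and *Cebpd* were called. *Cebpb* ranged from 1.53 to 2.05 FPKM in 14-48h-JFJ and from 0.201 to 0.494 in 14-48h-ZH (1.97, SE 0.17, adjusted p = 2.5e-07), and *Cebpd* from 2.68 to 5.07 against 0.833 to 1.57 (1.93, SE 0.16, adjusted p = 2.1e-07). Both means of Normoxia, 2.84 and 3.08, lay with or above the altitude group, and those of 14-06h-ZH, 0.413 and 1.79, below it. In the list of C/EBP and glucocorticoid targets 8 of 16 passed as higher, among them the sulfotransferase *Sult1a1* (0.90), and 1 as lower, the clock gene *Per1* (-0.39), or 5 and 1 after median-of-ratios scaling.

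Of 18 genes of the glial stress response 7 passed as higher and 0 as lower, a share near that of all genes (30.9%), and after median-of-ratios scaling 4 passed as higher and 1 as lower. *Serpina3n*, a protease inhibitor of reactive glia, had medians of 8.08 and 3.27 FPKM (1.32, SE 0.30, adjusted p = 0.0046), and *Lcn2*, lipocalin, ranged from 6.05 to 8.81 against 3.43 to 5.9 (0.82, SE 0.12, adjusted p = 8.2e-05). With the pigment marker mean as a term in the limma fit, *Serpina3n* stood at 0.67 and did not pass (adjusted p = 0.34), while *Lcn2* did (0.90, adjusted p = 0.0088). In that fit 6 of the 18 passed as higher and 0 as lower, against 14.2% and 3.88% of all genes. *Edn2*, endothelin 2, which photoreceptors release under stress, had a log2 difference of 1.30 (SE 0.31, adjusted p = 0.0061). Its FPKM was 3.59, 3.45 and 3.58 in replicates 1 to 3 of 14-48h-JFJ and 9.53, 9.53 and 8.61 in replicates 4 to 6, and 1.51 to 2.85 in 14-48h-ZH. *Gfap*, the filament protein of activated Müller glia, did not pass (0.53, adjusted p = 0.18), but its values fell the same way, at 10.23, 8.76 and 7.48 FPKM in replicates 1 to 3 and 22.6, 19.0 and 20.4 in replicates 4 to 6, against 7.47 to 10.6 in 14-48h-ZH. Replicates 1 to 3 are the mice with Y-linked transcripts and replicates 4 to 6 those without, a division seen after the values, and it was not tested.

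**Figure D5:**
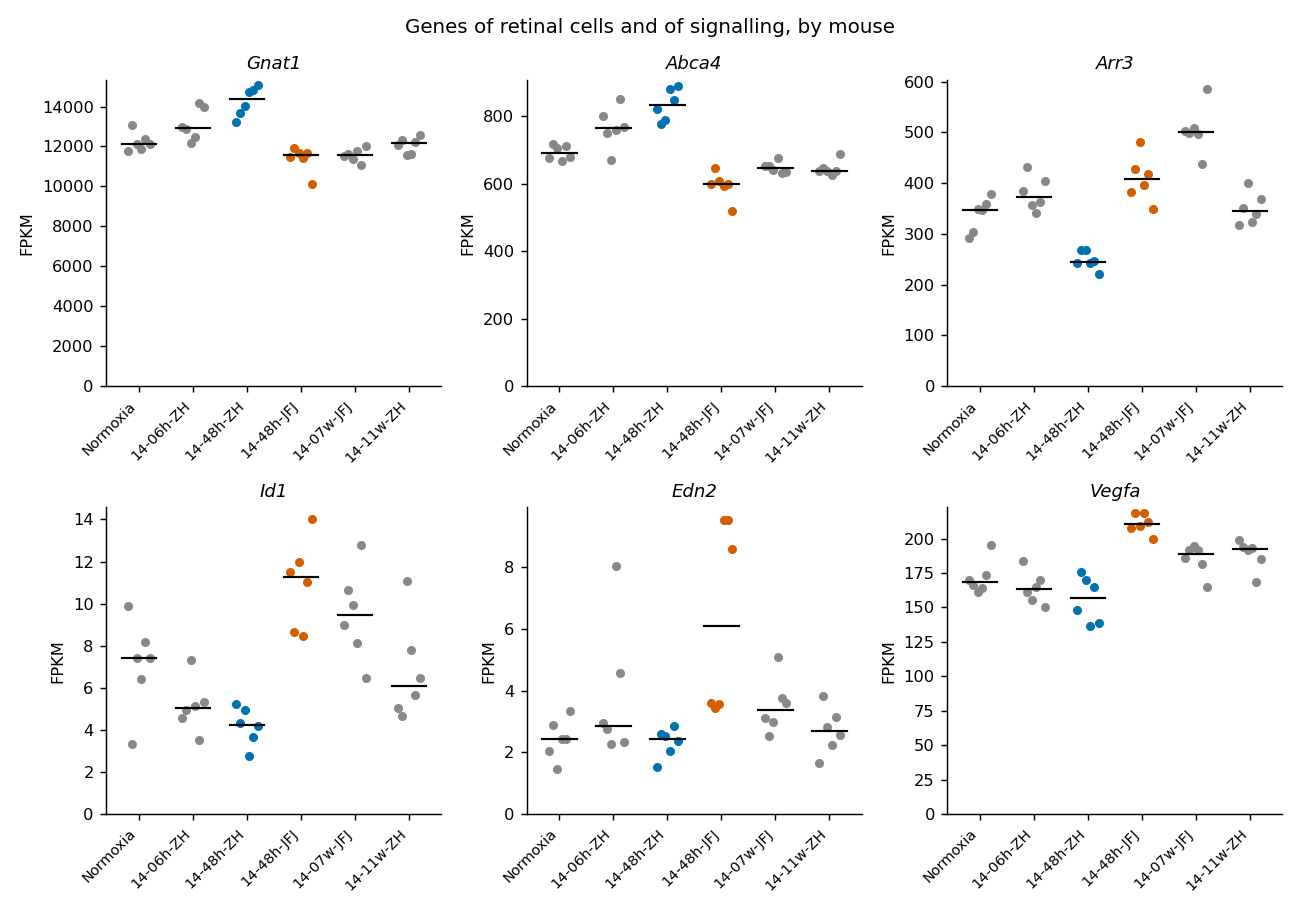
Each point is 1 mouse, the vertical axis is FPKM from 0, the horizontal axis is the group, and the bar is the median of 6 mice. *Gnat1* and *Abca4* are lower and *Arr3*, *Id1*, *Edn2* and *Vegfa* higher in 14-48h-JFJ (orange) than in 14-48h-ZH (blue), and *Edn2* falls into values near 3.5 and near 9 within 14-48h-JFJ.

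The counts for defence genes depended on the scaling, with 30.9% of all genes higher on the FPKM scale and 18.3% after median-of-ratios scaling. Of 18 antioxidant and glutathione genes 11 passed as higher and 0 as lower, or 6 and 1 after that scaling, and *Gsta3* and *Mgst1*, glutathione transferases, were called with medians of 6.69 and 1.85 FPKM and of 21.2 and 7.42 FPKM. With the pigment marker mean as a term in the fit, 5 of the 18 passed as higher and 0 as lower, against 14.2% and 3.88% of all genes. *Gsta3* (0.30) and *Mgst1* (0.84) did not pass in that limma fit (adjusted p = 0.45 and 0.37). All 4 genes of the metallothionein list passed as higher, with *Mt2*, a zinc and copper buffer, at 37.5 to 80 FPKM against 18.4 to 32 (1.05, SE 0.21, adjusted p = 0.0022). *Mt2* was under the size threshold when replicate 1 or 5 of 14-48h-JFJ or replicate 1 of 14-48h-ZH was left out, at 0.94, 0.99 and 0.95, and at 0.95 after median-of-ratios scaling. With the pigment term *Mt2* stood at 0.53 and did not pass (adjusted p = 0.24). Of 18 interferon and MHC class I genes 8 passed as higher and 0 as lower, or 6 and 1 after median-of-ratios scaling. *Bst2*, the antiviral tetherin, was at the threshold (1.01, adjusted p = 7.5e-05, and 0.87 without replicate 5 of 14-48h-JFJ), *Ifitm3* at 0.89 and *B2m*, the light chain of MHC class I, at 0.85. Of 12 complement genes tested 6 passed as higher and 0 as lower, or 3 and 0 after median-of-ratios scaling.

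HIF targets were on balance slightly higher in 14-48h-JFJ, with an outcome that depended on the scaling. Of 43 targets 22 passed as higher and 1 as lower on the FPKM scale, and 11 and 6 after median-of-ratios scaling. Over all genes 30.9% were higher and 8.66% lower on the FPKM scale, and 18.3% and 18.1% after that scaling. The median log2 difference of the targets was 0.21 against 0.11 over all genes, and 0.10 against 0.02 after that scaling. *Vegfa*, the vessel growth factor, separated the groups at 200 to 218 FPKM against 137 to 176 (0.44, SE 0.06, adjusted p = 2e-05), with 172 in Normoxia. *Fam162a* and *Bnip3*, mitochondrial proteins of the hypoxic response, had 52.6 to 57.9 against 38.8 to 43.2 FPKM (0.42) and 200 to 239 against 165 to 184 (0.34). Their means in Normoxia, 34.7 and 152, lay below both 48 h groups. *Higd1a* was higher by 0.43 and *Cited2*, a brake on HIF, by 0.48, the latter with 97.5 FPKM in Normoxia against 95.3 and 68.5 in the altitude and Zurich groups. *Epo*, erythropoietin, the hormone of red cell production, was named after its values were seen and had 2.24 to 5.13 FPKM against 0.783 to 1.52 (1.26, SE 0.21, adjusted p = 0.00016), with 2.54 in Normoxia and 1.16 in 14-06h-ZH. Of 21 glycolysis genes 5 passed as higher and 5 as lower, and 1 and 9 after median-of-ratios scaling, against the same shares of all genes. *Pgk1*, which makes ATP in glycolysis, had a difference of 0.16, and the kinases *Hk1* and *Pkm* of -0.26 and -0.19, with no overlap between the groups in these 3 genes.

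Clock and heat shock genes were mixed. Of 18 clock genes 5 passed as lower and 2 as higher, with *Per1* at -0.39, *Cry2* at -0.24 and *Dbp* at 0.45, against 8.66% lower and 30.9% higher over all genes. Their balance depended on the setting, with 8 lower and 1 higher after median-of-ratios scaling and 4 and 6 after the correction for transcript length. The groups lived under different light cycles, and a part of the light cycle in these values was not tested. Of 14 heat shock and cold-inducible genes 5 passed as higher, a share near that of all genes, and 3 as lower, or 3 and 4 after median-of-ratios scaling. The chaperonin *Hspe1* stood at 0.64 and the chaperone *Hspa8* at -0.24.

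The 48 h difference was then set against that after weeks, 14-07w-JFJ minus 14-11w-ZH, in mice that the first comparison does not use. After weeks 40 of 17037 genes were called (0.235%), all 40 higher at altitude and 0 lower, where limma gave 80 lower genes at an adjusted p of at most 0.05 at any size and 1024 at an unadjusted p under 0.05. The 13 genes called at both durations were 5.94% of the 219 and 32.5% of the 40, namely *Baiap2l2*, *Gm10073*, *Gm11273*, *Gm11808*, *Gm9843*, *Krt8*, *Lrat*, *Rpl10-ps3*, *Sema3c*, *Slc6a20a*, *St3gal6*, *Tc2n* and *Tnfaip2*. The shared genes hold 5 predicted genes or pseudogenes and *Lrat*, the retinol acyltransferase of the pigment epithelium. The number shared depended on the fit, from 1 with the pigment marker mean as a term and 3 with a pseudocount of 1 to 31 with a Y-linked term, 44 with edgeR and 79 with DESeq2.

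A test of the interaction over the 24 mice called 177 of 16774 genes (1.06%). Of the 130 genes that do not follow *Rpe65*, 74 had an adjusted interaction p of at most 0.05, and of the 82 that do, 2 had one, against 26.5% of all genes. Both sets were chosen for their 48 h difference, which enters the interaction, so these counts are a description. *Scand1*, *Nrtn* and *Jund* had differences of -0.13, -0.34 and -0.04 after weeks, and *Abca4* of 0.01. *Tyr*, *Tagln*, *Mdk* and *Angptl2* had differences of 2.46, 1.85, 1.16 and 1.34 after weeks, of a size like that at 48 h, although none of the 4 passed the test there (adjusted p = 0.23, 0.19, 0.14 and 0.088). The interaction was not past the threshold for these 4 genes, which does not show that their differences were equal. Pigment cell markers summed to 132.9 to 993.1 FPKM in 14-07w-JFJ and 60.53 to 161.1 in 14-11w-ZH.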

How the data were processed

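RNA-seq libraries of 42 mouse retinas were analysed from 1 deposited table. The FPKM values and a second column of normalized count signal per gene and mouse were made by the authors, who aligned reads with STAR; the version and the counting tool are not given in the sources used here. FPKM divide by gene length and library total. Reads were recovered from the normalized signal where its low values were whole steps (100% within a tolerance of 0.1 steps, 36 libraries), and served only as alternatives with edgeR 4.0.16 and DESeq2 1.42.0 without replicate 4 of 14-48h-JFJ.

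Groups came from the sample labels. A gene was tested where no group had over 3 mice at FPKM 0. The test was limma 3.58.1 in R 4.3.3 (a linear model with moderated variances, options trend and robust), two-sided, applied to log2(FPKM + 0.1) over the 12 mice, with Benjamini-Hochberg adjustment over all genes tested. The study's own pairwise test was edgeR, which needs counts. A correlation with *Rpe65* is Pearson's r of log10(FPKM + 1). The same test served for the other pairs and, over 24 mice, for the interaction. Tested on simulated data, the scripts recovered the changes put in. No source says whether mice of a group were housed together, so p-values measure the spread between these mice.

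The comparison, the gene lists and the markers were chosen with earlier results of these data known. Named genes are those the study's text names for the comparison, the 15 largest increases and decreases among called genes whose groups lay apart and whose mean FPKM reached 1, and up to 4 members of each list with the smallest p, plus members with a defining role. Transcript length and G and C content came from GENCODE M21, promoters from RefSeq (GRCm38.p6). Replicate numbers are shared by the groups but do not pair mice. Alternatives were other pseudocounts, filters, scalings, terms for pigment markers and Y-linked genes, a replicate block, all groups in 1 fit, and each mouse left out; the correction for transcript length was added after the data were seen. Figures were drawn with matplotlib 3.10.9 in Python 3.11.15. Some genes are not reported here.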

Additional observations from a re-analysis of the deposited data

Results flagged for a closer look

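In 21 of 212 sets of 6 values examined (9.91%), 1 mouse lay far from the others by Dixon's criterion. Its nominal rate of about 1 of 20 holds for independent normal values. These sets are FPKM without a log and hold marker sums beside their own members, so the share cannot be read against that rate. In 14-48h-JFJ, replicate 6 stood apart with the lowest rod marker sum (37690 FPKM, next 41980), *Gnat1* (10100) and *Kdr* (34.84), and with the highest lens marker sum (58280, next 9742), *Cryaa* (18880) and *Rpl27* (89.53). Single values apart were *Ccnb1ip1* in replicate 2 (7.712 FPKM), *Bst2* in replicate 5 (9.114), *Higd1a* in replicate 3 (75.64) and *Car14* in replicate 1 (114.1). In 14-48h-ZH, replicate 1 stood apart with the highest lens marker sum (11360), *Tyr* (1.041), *Dct* (18.25), *Cryaa* (5676) and *Id3* (20.13), and the lowest *Bnip3* (165.2), *Pgk1* (205.0) and *Gngt2* (82.17). The other 3 were *Alas2* in replicate 5 (1.311), *Cebpd* in replicate 6 (1.566) and *Ptn* in replicate 4 (27.77).

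The difference between low and normal pressure differed between 48 h and weeks by at least 1 on the log2 scale, with an adjusted interaction p of limma of at most 0.05, for 17 of 95 named genes tested. The interaction was 3.05 for *Scand1*, 3.30 for *Nrtn*, 1.49 for *Jund*, 2.995 for *a*, 2.50 for *Prr7*, 2.42 for *CAAA01147332.1*, 3.11 for *Rpl9-ps6*, 1.95 for *Gm9843* and 2.87 for *Gm11273*. It was 3.41 for *Gm10073*, 2.45 for *Gm11808*, 2.48 for *Ccnb1ip1*, 1.04 for *Epo*, 1.54 for *Cebpb*, 1.48 for *Cebpd*, 1.25 for *Lcn2* and 1.39 for *Ndufb4*. The 4 groups of that test come from 4 code series, so duration, pressure and series cannot be told apart.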

How the results depend on the processing

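The 219 calls became 74 with a pseudocount of 1 and 122 at a mean FPKM of at least 1, and the 137 left by the *Rpe65* filter 42 and 67, 208 with a pseudocount of 0.01, 62 at a limit of 0.3, 209 with the pigment list in place of the correlation and 87 with the correction for transcript length, which was chosen after seeing the data. The 13 genes shared with the weeks became 3 with a pseudocount of 1, 44 with edgeR, 79 with DESeq2, 26 with all 7 groups in 1 fit, 5 without trend and robust options, 1 with the pigment term, 31 with the Y-linked term and 22 with the replicate block. The 177 interaction calls became 46 with a pseudocount of 1 and 83 at a mean of at least 1. Leaving out 1 mouse gave 187 to 256, 128 to 161, 11 to 17 and 167 to 191. The pigment term gave 211 calls, 169 higher and 42 lower, of which 76 were among the 219. It reversed *Lum* (-0.30), *Dcn* (-1.48), *Tpm2* (-0.27) and *Myh11* (-0.58), and *C2* (-0.76), called in neither fit, also changed direction. The replicate block gave 214 calls, 205 of them shared, and ended those of *Tagln*, *Tpm2*, *Acta2*, *Myh11* and *Ccnb1ip1*. Numbers do not pair mice here, since same-numbered mice correlated at -0.06 to 0.45 and only numbers 2 and 5 correlated best with their own. The cause of these shifts was not tested. Of 5358 values of 192 named genes, 5169 kept their side of the threshold. A change of direction was counted only where either fit called the gene. Some of the 5169 therefore changed sign, such as *C2* (-0.76), *Rpe65* (-0.46) and *Alas2* (-0.04) with the pigment term.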
